A study of Arabidopsis thaliana with 18 samples.

Results

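Rosettes of Arabidopsis thaliana harvested at the labelled time 20 h were compared with rosettes harvested at 8 h, a pair of times 12 h apart in a course over the day. The comparison took the 3 arrays titled 20 h and the 3 titled 8 h out of 18 arrays that cover 6 times, 0, 4, 8, 12, 16 and 20 h, and it is described across all genes of the array. At both times the material was wild-type Col-0, the standard laboratory accession, with no mutation and no treatment named. Full rosettes of plants aged 5 to 6 weeks were used, and 15 rosettes were ground together per sample, so each array shows a pool and not a single plant. The 3 arrays of a time came from plants grown separately and are called series A, B and C by their replicate letter. The letter pairs a 20 h array with the 8 h array of the same series. As the labels give no light schedule, times are used just as labelled.

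Leaves of a plant in a day and night cycle fix carbon in the light, store part of it as starch in the chloroplast, and break the starch down to sucrose and other sugars in the dark. A circadian clock, a set of genes that regulate each other in a loop, sets the hour at which many output genes are transcribed, among them genes of photosynthesis, carbon metabolism and the response to cold. Where carbon runs short, kinases of the SnRK1 type and autophagy, the recycling of cell contents in the vacuole, take part in drawing on reserves.

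Expression was measured as signal intensity per probe set on Affymetrix arrays, and array medians lay between 32.2 and 39.9. Series C stood apart in its controls. The ratio of 3' to 5' signal of a ubiquitin transcript, which rises as RNA degrades, was 5.98 on the 20 h array and 4.79 on the 8 h array of series C. On the 20 h and 8 h arrays of series A and B it lay between 2.37 and 2.99. Set against the other series, all 6 arrays were closer to their own time than to the time compared with it. The array labelled 8 h B was nevertheless closest to 12 h, with a mean correlation of 0.966 with 12 h and 0.957 with 8 h of the other series. Likewise 8 h C lay slightly closer to 12 h (0.955) than to 8 h (0.953). In turn 12 h B lay closest to 8 h (0.966, against 0.959 with 12 h), as did 12 h A by less (0.965, against 0.963). Whether 8 h B and 12 h B are labelled rightly was not tested. The 20 h array of series A lay slightly closer to 0 h (0.965) than to 20 h (0.964). In series B, the array 4 h B lay closest to 16 h (0.963, against 0.945 with 4 h) and 16 h B closest to 4 h (0.967, against 0.946 with 16 h). Both arrays enter the fit of 18 arrays used below as labelled, and without them it made 2654 calls in place of 1560, 1557 of the 1560 among them. As the samples are whole rosettes, fewer cells of a type and less RNA per cell cannot be told apart in any result.

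At 20 h 803 probe sets were higher and 757 lower than at 8 h, together 1560 of 22746 tested (6.86%, 3.53% higher and 3.33% lower). A call had an adjusted p below 0.05 in limma, fitted to log2(signal + 1.1) of all 18 arrays with the series as a block. Every difference given is 20 h minus 8 h on that log2 scale, with its SE, and signals of 3 arrays are listed in the order A, B, C. The SE and adjusted p come from the spread in all 18 arrays, so the other times enter them besides the arrays compared. Of the calls, 336 higher and 287 lower probe sets differed by at least 1, and 8 higher and 7 lower ones by at least 4. The median size of a called difference was 0.90 for higher and 0.82 for lower probe sets. All 1560 had one sign in the 3 series, as did 43.8% of all probe sets. The signals of the 20 h and 8 h arrays did not overlap in 1416 of the calls, 90.8% of them, against 19.2% of all probe sets (9.8% higher and 9.43% lower). A single gene could be named for 762 of the calls, 393 higher and 369 lower. With 1 probe set per gene, 5.67% of 13350 genes were called, the share against which counts in lists and families stand.

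**Figure D1:**
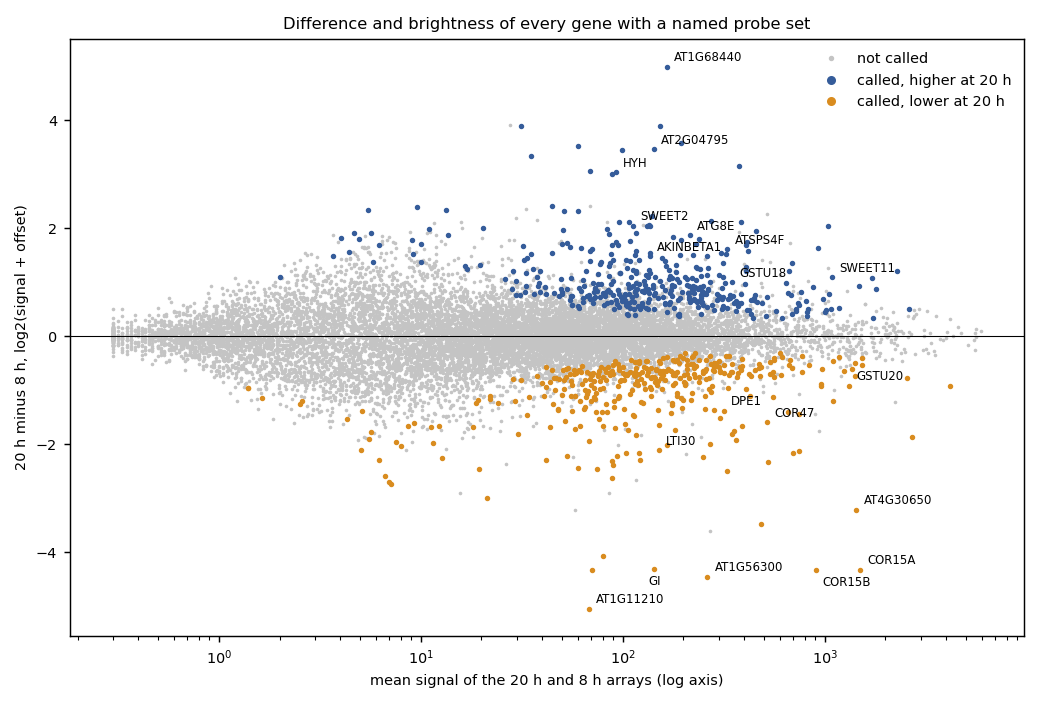
Each point is a gene with a named probe set, with its mean signal over the 20 h and 8 h arrays on a log axis and its log2 difference, 20 h minus 8 h; called genes are blue where higher at 20 h and orange where lower. COR15A and COR15B, at -4.32 each, lie among the brighter genes and the largest differences, and most called genes lie within 2 log2 units of 0.

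The number of calls depended on which series entered the fit, most on series A and then on series C. Without series A 62 probe sets were called, without series C 113, and without series B 2873, with 1379 of the 1560 among them. The difference was smallest in series B for 751 of the 1560 calls, in series C for 496 and in series A for 313, and the median size was 0.81 in B, 0.87 in C and 0.93 in A. Across all probe sets the pair differences, which share no array, correlated by 0.35 between A and B, 0.42 between A and C and 0.27 between B and C. Leaving out 1 array left 601, 843 and 751 calls for 20 h A, B and C, and 739, 1199 and 691 for 8 h A, B and C. Where an omission ended calls, the limma adjusted p of that fit is given for the gene or as a range for its group. Among 139 called genes followed one by one (the largest, the list and family members and the bright ones with a symbol), 8 kept their call whichever series or single array was left out: COR15A, COR15B, SWEET2, GSTU18, AT1G56300, AT2G04795, AT4G15430 and AT4G30660. All 139 kept their call without 4 h B and 16 h B. Of them 10 did so without series A and 15 without series C, fits that still held both of these arrays. What 4 h B and 16 h B contribute to the losses was not tested.

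Cold- and dehydration-regulated genes were low at 20 h and high at 8 h. Of 18 genes of this list 6 had a probe set, and 4 were called, all lower. The median difference of the 6 was -2.17, against 0.00 over all probe sets. COR15A (AT2G42540), which encodes a small protein of the chloroplast stroma that protects membranes during freezing, had signals of 96.8, 219 and 130.4 at 20 h, against 2337, 3036 and 3206 at 8 h. Every 20 h array lay below every 8 h array, 20-fold in the fit (-4.32 ± 0.29, limma adjusted p = 3.57e-06). Its neighbour and close relative COR15B (AT2G42530) had signals of 61.0, 102 and 97.8 at 20 h, against 1593, 1630.4 and 1932 at 8 h (-4.32 ± 0.30, limma adjusted p = 3.57e-06). These genes resemble each other, and how far their probe sets tell them apart was not tested. The dehydrins, hydrophilic proteins that accumulate in cold and drought, showed the same order with more spread. LTI30 (AT3G50970) had signals of 63.7, 40.1 and 56.6 at 20 h, against 267, 132 and 344 at 8 h (-2.11 ± 0.47, limma adjusted p = 0.016). COR47 (AT1G20440) had 215, 251 and 283 at 20 h, against 791, 488 and 1095 at 8 h (-1.60 ± 0.34, limma adjusted p = 0.0132). In both dehydrin genes 8 h B was the lowest 8 h array, so the groups lay closest in series B. COR27, a cold- and clock-regulated gene, had 36.9, 37.7 and 35.2 at 20 h, against 144, 137 and 177 at 8 h, and was not called (-2.02 ± 1.35, limma adjusted p = 0.449). AT4G33980 had 13.5, 22.7 and 21.1 at 20 h, against 122, 71.2 and 88.3 at 8 h, and was not called either (-2.23 ± 1.21, limma adjusted p = 0.326). In both the 20 h and 8 h signals did not overlap, and the SE also holds the spread of the arrays of the other times. COR15A and COR15B kept their calls with any series left out. The adjusted p of LTI30 and COR47 was 0.269 and 0.267 with series A left out and 0.219 and 0.246 with series C left out, and with a single array omitted it reached 0.0893 (LTI30, without 8 h C).

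**Figure D2:**
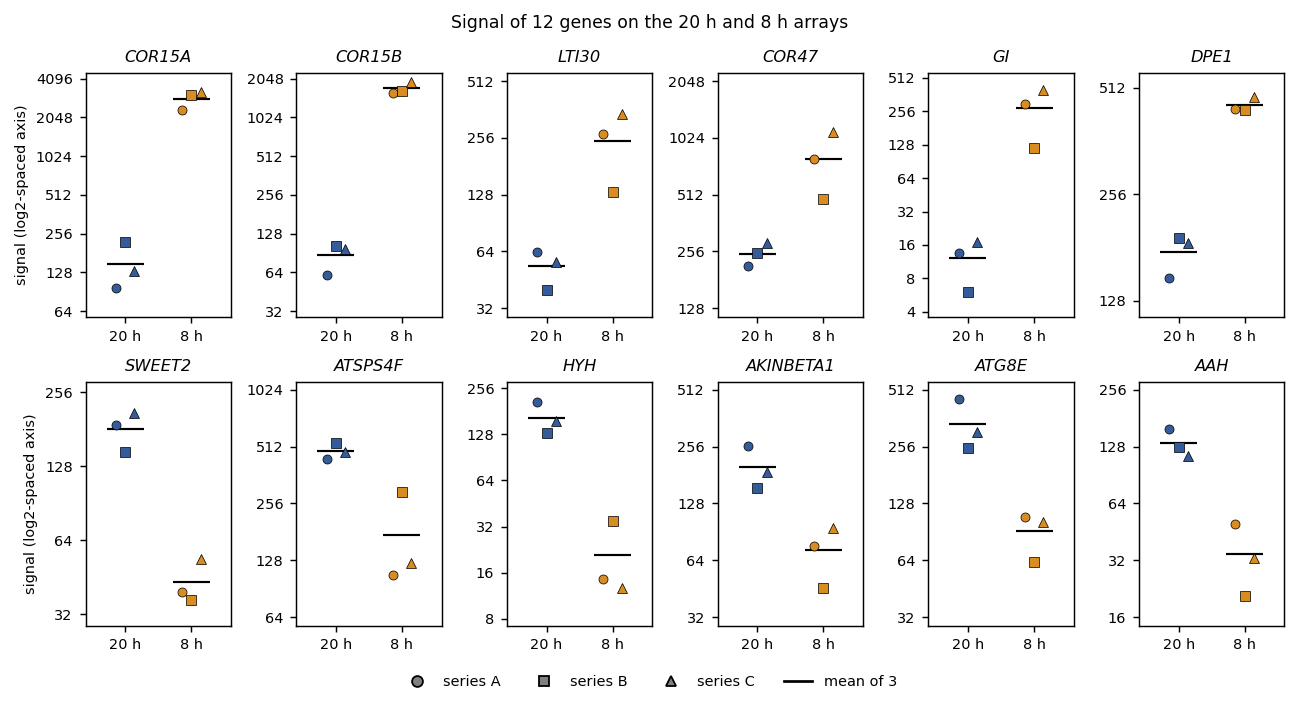
Signal of 12 genes on the 3 arrays of 20 h (blue, left) and the 3 of 8 h (orange, right), on log2-spaced axes, with symbols for series A, B and C and a line at the mean of 3. In all 12 genes, which were picked from the called ones, the arrays of the 2 times do not overlap. The array 8 h B lies nearest to the 20 h arrays for LTI30, COR47, GI, DPE1, ATSPS4F and HYH.

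Of the clock genes listed, only 1 evening gene and 1 morning gene had a probe set with a single named gene. GI (AT1G22770), GIGANTEA, which stabilises a clock protein and links the clock to flowering, had signals of 13.5, 6 and 17.0 at 20 h, against 298, 121 and 401 at 8 h. It was 19.8-fold lower at 20 h (-4.31 ± 0.98, limma adjusted p = 0.0185), with -4.35 in series A, -4.10 in B and -4.47 in C. Series B had the lowest signal at both times. The call was lost on leaving out series A (0.282) or C (0.169), or any single array of the pair other than 8 h B (0.0526 to 0.0892). In limma with only the 6 arrays of the pair and the block, the adjusted p was 0.00087. Without 4 h B and 16 h B it was 0.00103. The listed morning gene AT5G52660 stood at 51.3 ± 10.7 at 20 h, against 53.8 ± 4.44 at 8 h (SD, n = 3 each) and was not called (-0.09 ± 0.21, limma adjusted p = 0.878). AT1G69570, the measured member of the photoperiod list, overlapped between the times and was not called (-0.95 ± 0.58, limma adjusted p = 0.393).

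The 5 measured genes of starch turnover all had lower mean signals at 20 h, and 1 was called. DPE1 (AT5G64860), the plastid disproportionating enzyme, which joins short glucans during starch breakdown in the dark, had signals of 148, 193 and 187 at 20 h, against 448, 442 and 482 at 8 h. The 20 h arrays lay far below the 8 h arrays, which were close together (-1.38 ± 0.28, limma adjusted p = 0.0101). PWD, a dikinase that puts phosphate on starch and opens it to breakdown, had 324, 515 and 379 at 20 h, against 619, 837 and 745 at 8 h, without overlap but short of the threshold (-0.87 ± 0.48, limma adjusted p = 0.341). In the synthesis list none of 3 measured genes was called. APL3 and APL4, large subunits of the enzyme that makes ADP-glucose, differed by -1.02 ± 0.38 and -0.46 ± 0.30, and SBE2.2, a starch-branching enzyme, by -0.28 ± 0.15 (limma adjusted p = 0.134, 0.426 and 0.317). For APL3 the 8 h B array was high, at 181, while 8 h A and C had 76.8 and 81.8. DPE1 lost its call on leaving out series A (0.229) or C (0.187), or the array 20 h A (0.0582) or 8 h A (0.05004).

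Among genes of sucrose synthesis and sugar transport 3 were called, all higher at 20 h. Both measured genes of the sucrose synthesis and export list, of 9 listed, were higher at 20 h. ATSPS4F (AT4G10120), a sucrose-phosphate synthase, which makes the precursor of sucrose in the cytosol, had signals of 442, 534 and 482 at 20 h, against 107, 294 and 123 at 8 h (1.62 ± 0.40, limma adjusted p = 0.027). The array labelled 8 h B stood well above the other 8 h arrays, yet below all 20 h arrays. SWEET11 (AT3G48740), which exports sucrose from leaf cells for loading into the phloem, had 1309, 1344 and 1809 at 20 h, against 577, 831 and 684 at 8 h (1.09 ± 0.29, limma adjusted p = 0.0388). SWEET2 (AT3G14770), a sugar transporter of the vacuole membrane, had 188, 146 and 211 at 20 h, against 39.6, 36.7 and 53.6 at 8 h (2.04 ± 0.14, limma adjusted p = 3.57e-06). Its arrays of a time lay close together, with all 20 h arrays well above the 8 h arrays. SWEET11 and SWEET2 were the called members among 14 SWEET genes with a probe set (14.3%, against 5.67% of single genes). Of the 14, 8 had a positive and 6 a negative difference, with a median of 0.24. The median of these 14 was -0.089 in series A, 0.238 in B and 0.277 in C. SWEET2 kept its call under every omission. ATSPS4F and SWEET11 stood at 0.383 and 0.393 without series A and 0.263 and 0.333 without series C, and from 0.087 to 0.173 on leaving out a single array other than 8 h B. SWEET11 also lost its call without the series block (0.071) and with equal array medians (0.0503).

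The called genes of the sugar starvation list and of the autophagy genes named ATG were higher at 20 h. In the sugar starvation list 2 of 4 measured genes, of 20 listed, were called, with a median of 0.38. AKINBETA1 (AT5G21170), a regulatory beta subunit of the SnRK1 kinase, had signals of 257, 154 and 188 at 20 h, against 76.3, 45.7 and 95.1 at 8 h (1.48 ± 0.29, limma adjusted p = 0.00852). All 20 h arrays exceeded all 8 h arrays, and within each time series B was the lowest. MCCA (AT1G03090), the biotin-bearing subunit of an enzyme of leucine breakdown in the mitochondrion, had 83.4, 78.5 and 92.7 at 20 h, against 50.1, 41.7 and 67.7 at 8 h (0.69 ± 0.17, limma adjusted p = 0.0307). MCCB, which encodes its partner subunit, stood at 168 ± 19.5 at 20 h, against 158 ± 9.87 at 8 h and was not called (0.08 ± 0.14, limma adjusted p = 0.821). IVD, of the preceding step in the same pathway, was not called either (41.1 ± 7.34 at 20 h, against 42.4 ± 12.1 at 8 h; -0.02 ± 0.22, limma adjusted p = 0.98).

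Among 8 measured autophagy genes named ATG, 7 had a positive difference, with a median of 0.34, and 2 were called (25%, against 5.67% of single genes). ATG8E (AT2G45170) encodes one of the small proteins that are tied to lipid in the growing autophagosome. It had 459, 252 and 305 at 20 h, against 109, 62.7 and 102 at 8 h (1.87 ± 0.40, limma adjusted p = 0.0135). ATG8F (AT4G16520), another member of that family, had 1049, 745 and 875 at 20 h, against 762, 432 and 619 at 8 h (0.58 ± 0.16, limma adjusted p = 0.0423). Its lowest 20 h array, from series B, lay below 8 h A, so the groups overlapped. Purine nitrogen is recovered by successive enzymes, and the genes for 2 consecutive ones were both called higher, chosen after their values were seen. ALN (AT4G04955), allantoinase, had 129.9, 91.2 and 81.9 at 20 h, against 40.5, 29.6 and 42.8 at 8 h (1.39 ± 0.22, limma adjusted p = 0.00217). AAH (AT4G20070), allantoate amidohydrolase, which acts on its product, had 159, 127 and 114 at 20 h, against 49.6, 20.8 and 32.8 at 8 h (1.99 ± 0.29, limma adjusted p = 0.00137). SDP1 (AT5G04040), a lipase that starts the breakdown of stored oil, was also called higher (0.87 ± 0.23, limma adjusted p = 0.0394). So was cICDH (AT1G65930), the cytosolic NADP-dependent isocitrate dehydrogenase (1.09 ± 0.26, limma adjusted p = 0.0249). Both were chosen after their values were seen, and AIM1, of fatty acid beta-oxidation, was called lower (-0.76 ± 0.17, given below). Of the 8 genes called higher in this and the preceding paragraph, AAH alone kept its call without series A (0.0326) and ALN alone without series C (0.0429). Without series B all but MCCA (0.0564) and ATG8F (0.0561) kept it. With a single array left out, the adjusted p of the 8 reached 0.179, for ATG8F without 20 h A and SDP1 without 20 h C. SDP1 also lost its call with quantile normalization (0.0516). Without the series block MCCA (0.0628), ATG8F (0.137) and SDP1 (0.161) lost theirs.

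**Figure D3:**
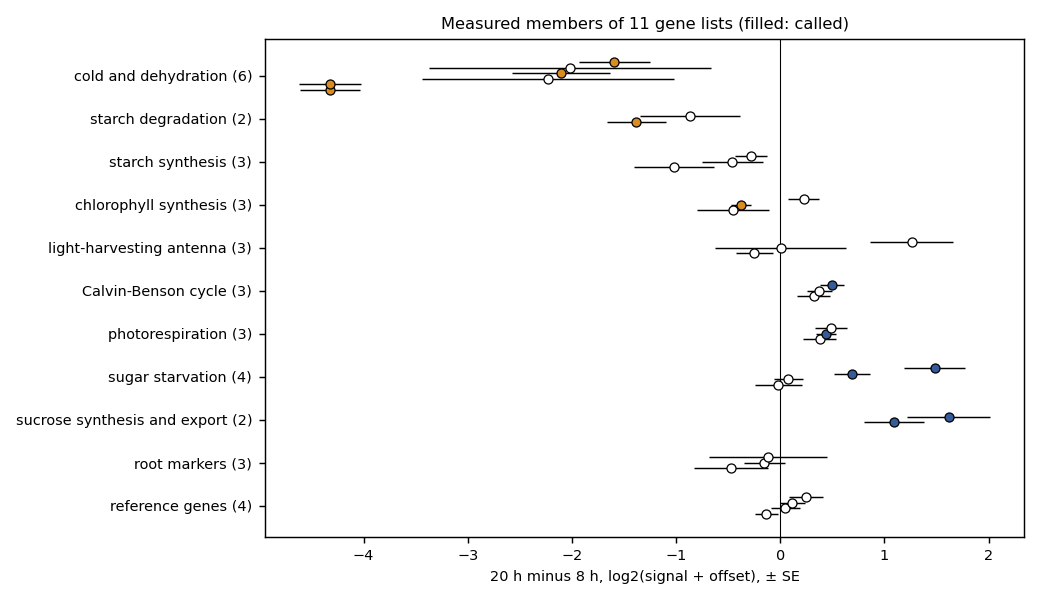
Every measured member of 11 gene lists, placed by its log2 difference, 20 h minus 8 h, with a bar of 1 SE; filled points were called (blue higher, orange lower at 20 h) and open ones were not, and the number after each list is its count of measured genes. All 6 cold genes lie left of 0 and both sucrose genes right of it, while the 4 reference genes lie between -0.13 and 0.25.

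Measured genes of photosynthesis differed by small amounts, and few were called. In the Calvin-Benson list 3 of 18 genes were measured and all 3 had positive differences. SBPASE (AT3G55800), sedoheptulose-bisphosphatase, which helps to regenerate the carbon dioxide acceptor, was called, with 2529.5, 3113 and 3575 at 20 h, against 1765, 2404 and 2363 at 8 h (0.50 ± 0.11, limma adjusted p = 0.0198). Series A was the lowest at both times, and the groups did not overlap. PRK, phosphoribulokinase, at 0.38 ± 0.12, and RCA, Rubisco activase, at 0.32 ± 0.16, were not called (limma adjusted p = 0.0903 and 0.277). In the photorespiration list AT1G80380 was called (0.44 ± 0.09, limma adjusted p = 0.0134), while HPR, hydroxypyruvate reductase of the peroxisome, at 0.49 ± 0.15, and AT1G11860, at 0.38 ± 0.16, were not (limma adjusted p = 0.0748 and 0.188).

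Antenna genes, whose proteins bind chlorophyll around the photosystems, were not called. LHCB4.1 and LHCB4.2, which encode the minor antenna protein CP29, differed by -0.25 ± 0.18 and 0.00 ± 0.63 (limma adjusted p = 0.482 and 1). LHCB4.3, the third gene of this kind, had 1328, 1591 and 1242 at 20 h, against 405, 1269.7 and 369 at 8 h (1.26 ± 0.40, limma adjusted p = 0.0764). Of its 8 h arrays, only 8 h B reached the range of the 20 h arrays. Without series B the limma adjusted p of LHCB4.3 was 2.36e-05. For chlorophyll synthesis, CHLI2, a subunit of magnesium chelatase, was called lower by a small amount (-0.37 ± 0.10, limma adjusted p = 0.0346). PORB, which reduces protochlorophyllide in the light, had 1630.1, 2316 and 2041 at 20 h, against 3361, 1698 and 3467 at 8 h (-0.45 ± 0.34, limma adjusted p = 0.516). Its order was opposite in series B. CHLM, a methyltransferase of the same pathway, was not called (0.23 ± 0.15, limma adjusted p = 0.439).

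Other called genes of chloroplast proteins, chosen after their values were seen, fell on both sides. CaS, a thylakoid calcium-sensing protein, was higher, at 2336 ± 513 at 20 h, against 1256 ± 121 at 8 h (0.88 ± 0.18, limma adjusted p = 0.00938). Also higher were LYC, lycopene cyclase of carotenoid synthesis, at 0.61 ± 0.12, LIL3:2, a light-harvesting-like protein, at 0.52 ± 0.13, and THX at 0.51 ± 0.12. Lower were CCB3, an assembly factor of cytochrome b6, at -0.97 ± 0.23, and TAAC, a thylakoid ATP/ADP carrier, at -0.88 ± 0.20. SAPX, a stromal ascorbate peroxidase, at -0.55 ± 0.14, and PIFI, which acts with the chloroplast NDH complex, at -0.52 ± 0.13, were lower too. The adjusted p of these 8 genes ran from 0.00671 (LYC) to 0.0347 (SAPX). Of 69 genes encoded in the plastid genome itself 1 was called (1.45%), while 62 had a positive difference, with a median of 0.19. The series went apart here, with a median of 0.202 in A, -0.037 in B and 0.415 in C, the series with the high 3' to 5' ratio, and 21 of the 69 had one sign in all of them. What that ratio contributes was not tested. The called gene was rpoC2 of the plastid RNA polymerase, with 614, 698 and 376 at 20 h, against 409, 449 and 176 at 8 h (0.77 ± 0.17, limma adjusted p = 0.0173). This rpoC2 signal was lowest in series C at both times, and its groups overlapped. All 12 called genes of photosynthesis and the chloroplast kept their call without series B, and none without series A (0.199 to 0.505) or series C (0.135 to 0.326). Without the series block 3 of 12 were called (rpoC2 at 0.558, SBPASE at 0.362), and with a single array left out they reached at most 0.169 (SAPX, without 8 h A). With equal array medians SBPASE (0.0589), CHLI2 (0.0605) and SAPX (0.0504) lost their calls, and with quantile normalization PIFI (0.0554) did.

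Several transcription factors and other regulators were called higher at 20 h, and this group holds only higher ones. All but HYH and the family members were chosen after their values were seen. HYH (AT3G17609), a bZIP relative of the light-signalling factor HY5, had signals of 207, 130.3 and 156 at 20 h, against 14.6, 35.0 and 12.7 at 8 h, 8.18-fold higher at 20 h (3.03 ± 0.40, limma adjusted p = 0.000653). As for ATSPS4F, 8 h B was the highest 8 h array. RR16 (AT2G40670), a response regulator of cytokinin signalling, had 478, 286 and 347 at 20 h, against 106, 139 and 73.8 at 8 h (1.80 ± 0.39, limma adjusted p = 0.0145). GT2 (AT1G76890), a trihelix DNA-binding factor, had 95.9, 105 and 81.9 at 20 h, against 32.5, 25.5 and 30.6 at 8 h (1.64 ± 0.36, limma adjusted p = 0.0162). TRY, a small MYB protein that represses leaf hair formation, stood at 47.7 ± 8.42 at 20 h, against 17.2 ± 2.39 at 8 h (1.41 ± 0.36, limma adjusted p = 0.0303). The basic helix-loop-helix factors bHLH121 and bHLH104, both known from iron homeostasis, were higher by 1.22 ± 0.27 and 0.60 ± 0.13 (limma adjusted p = 0.0147 and 0.0134). For bHLH104 the 3 arrays of a time were almost equal, with 209, 206 and 200.1 at 20 h, against 134, 137 and 133 at 8 h. IAA18, a repressor of auxin response, was the called member among 7 IAA genes (0.64 ± 0.16, limma adjusted p = 0.0275). WRKY47 was the called member among 6 WRKY genes (1.02 ± 0.25, limma adjusted p = 0.0259). PUB22, a U-box ubiquitin ligase, was dim, with 12.7, 10.8 and 6.3 at 20 h, against 0.7, 1.2 and 1.2 at 8 h (2.33 ± 0.46, limma adjusted p = 0.00803). It was the called member among 9 PUB genes. A single call is 14.3% of the IAA, 16.7% of the WRKY and 11.1% of the PUB genes, against 5.67% of single genes. None of 7 genes named bZIP was called, with a median of -0.14. Without series A these 9 regulators stood between 0.103 and 0.365 and without series C between 0.0831 and 0.282. WRKY47 was lost without series B (0.0716) and without the series block (0.102). With a single array omitted HYH kept its call throughout, and the others reached at most 0.137 (IAA18, without 8 h A). Called genes outside this group went the other way, among them ATMPK8 (-1.14 ± 0.31, limma adjusted p = 0.0423) and IQD23 (-1.11 ± 0.21, limma adjusted p = 0.00629). Both lost their calls without series A (0.334 and 0.114) and without series C (0.348 and 0.161).

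Genes that share a family or a symbol prefix were called in opposite directions in several cases, chosen after their values were seen. How closely they are related was not tested. Of 13350 single genes 5.67% were called, 390 higher and 367 lower, so calls both ways in a family are no result by themselves. Among 11 tau glutathione transferases, detoxifying enzymes, 1 was called each way (18.2% called). GSTU18 (AT1G10360) had 492, 478 and 431 at 20 h, against 251, 225 and 221 at 8 h (1.0 ± 0.11, limma adjusted p = 0.000171). GSTU20 (AT1G78370) had 840.2, 852 and 1044 at 20 h, against 1816, 1521 and 1825 at 8 h (-0.92 ± 0.17, limma adjusted p = 0.00632). Neither gene's groups overlapped, and the arrays of a time lay close together. Of 47 glycosyltransferase genes named UGT 2 were higher and 3 lower (10.6% called), with a median of 0.01. UGT76C2, which adds glucose to cytokinins, had 135, 157 and 116 at 20 h, against 42.9, 35.1 and 46.8 at 8 h (1.69 ± 0.22, limma adjusted p = 0.000487). UGT74D1, which acts on auxins, was higher too (1.2 ± 0.15, limma adjusted p = 0.00034). UGT84A3, active on phenylpropanoid acids, had 20.3, 18.1 and 21 at 20 h, against 87.3, 63.7 and 51.9 at 8 h (-1.69 ± 0.39, limma adjusted p = 0.0187). Also lower were UGT85A5 (-1.10 ± 0.31, limma adjusted p = 0.0452) and UGT80B1, a sterol glucosyltransferase (-0.90 ± 0.16, limma adjusted p = 0.00462).

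Structural and housekeeping proteins gave further such pairs, also chosen after their values were seen. Of the alpha-tubulins, subunits of microtubules, TUA1 had 148, 169 and 123 at 20 h, against 97.9, 89.3 and 70.7 at 8 h (0.76 ± 0.15, limma adjusted p = 0.00975). TUA6 went the other way, with 1066, 1289.6 and 917 at 20 h, against 1552, 1588 and 1801 at 8 h (-0.60 ± 0.13, limma adjusted p = 0.0129). Of the LIM proteins that bundle actin, WLIM2b was higher (0.40 ± 0.11, limma adjusted p = 0.0403) and WLIM2a (-1.11 ± 0.24, limma adjusted p = 0.0146) and WLIM1 (-0.92 ± 0.21, limma adjusted p = 0.0176) were lower. The glutaredoxin GRXC1 was higher (0.64 ± 0.18, limma adjusted p = 0.0486) and GRXC2 lower (-0.40 ± 0.10, limma adjusted p = 0.0347). Of the ubiquitin-conjugating enzymes UBC28 was higher (0.93 ± 0.18, limma adjusted p = 0.0086) and UBC20 lower (-0.70 ± 0.16, limma adjusted p = 0.0197). Among 26 cytochrome P450 genes (7.69% called) CYP71B22 was higher (1.71 ± 0.47, limma adjusted p = 0.0427) and CYP71B28 lower (-0.46 ± 0.12, limma adjusted p = 0.0373). Of these 18 genes, GSTU18 alone was called without series A, 3 without series C and all but CYP71B28 (0.171) without series B. Without the series block 10 of the 18 were called. With a single array omitted they reached at most 0.208 (GRXC1, without 8 h C). GRXC1 and GRXC2 also lost their calls when array medians were made equal (limma adjusted p = 0.064 and 0.0567), as did UGT85A5 and CYP71B22 with quantile normalization (0.0534 and 0.0549).

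Genes that act on the cell wall were called on both sides. EXGT-A3 (AT2G01850), a xyloglucan endotransglucosylase, which cuts and rejoins wall polymers, had signals of 802, 690.2 and 393 at 20 h, against 273, 195 and 150.4 at 8 h (1.58 ± 0.18, limma adjusted p = 0.000236). Its 20 h and 8 h arrays did not overlap, and series C was lowest at both times. The 9 genes of that enzyme family named XTH gave no call, and 8 of them had negative differences, with a median of -0.32. That median was -0.833 in series C, against 0.025 in A and 0.0 in B, and 2 of the 9 had one sign in all series. TBL45 and TBL37, of the family that acetylates wall polysaccharides, were higher by 1.75 ± 0.39 and 1.41 ± 0.30 (limma adjusted p = 0.0164 and 0.0136). EXO, EXORDIUM, a brassinosteroid-responsive gene of cell expansion, had 277, 255 and 169.9 at 20 h, against 92.7, 113 and 62.1 at 8 h (1.39 ± 0.33, limma adjusted p = 0.0239). PMEPCRF, a pectin methylesterase, was higher as well (1.26 ± 0.35, limma adjusted p = 0.0431). GH9C2, an endoglucanase, had 215, 375 and 232 at 20 h, against 557, 667 and 506 at 8 h (-1.11 ± 0.24, limma adjusted p = 0.0138). Also lower were BGLU44 (-1.2 ± 0.30, limma adjusted p = 0.0276) and BGLU25 (-0.57 ± 0.12, limma adjusted p = 0.0101), the called members among 20 beta-glucosidases (10%, against 5.67% of single genes). None of 10 expansins EXPA, wall-loosening proteins, was called, with a median of -0.03. All 8 were called without series B, none without series A (0.0606 to 0.437) and EXGT-A3 alone without series C (0.0332). With a single array omitted the highest value was 0.217 (PMEPCRF, without 8 h C), and PMEPCRF also lost its call with equal array medians (0.0591). EXO, PMEPCRF and BGLU25 lost their calls without the series block.

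Called genes of protein folding and gene expression, again chosen after their values were seen, were found on both sides. Cpn60beta2 (AT3G13470), a subunit of the chloroplast chaperonin, had 443, 758 and 791 at 20 h, against 850.3, 1531 and 1414 at 8 h (-0.93 ± 0.19, limma adjusted p = 0.0101). Series A was the lowest at both times, and the 3 pair differences lay between -1.01 and -0.84. Fes1A, a partner of cytosolic HSP70 chaperones (-0.81 ± 0.19, limma adjusted p = 0.0235), and CRT1b, a calreticulin of the endoplasmic reticulum (-0.58 ± 0.16, limma adjusted p = 0.0443), were lower as well. Lower, too, were NRPB12 and NRPA2, subunits of RNA polymerases II and I, at -0.71 ± 0.11 and -0.61 ± 0.16 (limma adjusted p = 0.00227 and 0.0353). The organelle RNA-binding proteins PPR596 and PPR336 were at -1.0 ± 0.19 and -0.76 ± 0.21 (limma adjusted p = 0.00684 and 0.0456), and Y14 of the exon junction complex was lower too (-0.37 ± 0.10, limma adjusted p = 0.0325). Higher at 20 h were DIM1A, which methylates ribosomal RNA (0.92 ± 0.25, limma adjusted p = 0.0395), and MAC3B, of a complex bound to the spliceosome (0.49 ± 0.12, limma adjusted p = 0.0276). All 10 were called without series B, none without series A (0.0933 to 0.41) or series C (0.108 to 0.31), and Fes1A alone without the series block. With a single array omitted they reached at most 0.179 (CRT1b, without 20 h A). CRT1b also lost its call with equal array medians (0.0581) and DIM1A with quantile normalization (0.0519). ATRBP45C, an RNA-binding protein, was higher too (0.33 ± 0.09, limma adjusted p = 0.0449), but stood at 0.448, 0.116 and 0.187 on omitting A, B and C in turn and at 0.0845 with equal array medians.

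In lipid metabolism AAPT2 (AT3G25585), which completes the synthesis of phosphatidylcholine and phosphatidylethanolamine, had 291, 247 and 246 at 20 h, against 98.4, 122 and 94.3 at 8 h (1.31 ± 0.15, limma adjusted p = 0.000257). TSC10A, a reductase of sphingoid base synthesis, had 134, 112 and 138 at 20 h, against 71.1, 72.6 and 83.6 at 8 h (0.74 ± 0.13, limma adjusted p = 0.00468). CPI1, an isomerase of sterol synthesis, was lower, with 86.0, 101 and 111 at 20 h, against 156, 187 and 149 at 8 h (-0.72 ± 0.16, limma adjusted p = 0.0174). AIM1, an enzyme of fatty acid beta-oxidation in peroxisomes, was lower too, at 273 ± 70.7 at 20 h, against 466 ± 144 at 8 h (-0.76 ± 0.17, limma adjusted p = 0.0159). In none of these 4 genes did the arrays of the 2 times overlap. All 4 were called without series B, and on leaving out A or C they stood between 0.0607 and 0.293. With a single array omitted AAPT2 and TSC10A kept their calls, and CPI1 reached 0.104 (without 20 h A) and AIM1 0.0932 (without 8 h A). AIM1 also lost its call without the series block (0.124).

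Ranked by size here are only the calls whose probe set names 1 gene and has a mean signal of at least 37.1, the median, at 20 h or 8 h. Of the 8 higher probe sets that differed by at least 4, 7 name no single gene and are left out, while all 7 such lower ones are in. Within this set the largest differences belonged mostly to genes that the reference table carries by locus only, for which no role is given here. Of its 15 largest higher genes, AT1G68440 led, with 381, 326 and 255 at 20 h, against 8.7, 23.0 and 3.1 at 8 h, a 31.8-fold difference (4.99 ± 0.56, limma adjusted p = 0.000182). AT5G26200 followed, with 65.2, 66.1 and 47.5 at 20 h, against 2.9, 1.5 and 5.2 at 8 h (3.90 ± 0.75, limma adjusted p = 0.00702). Next was AT1G49200, with 394, 271 and 197 at 20 h, against 12.8, 14.7 and 28.9 at 8 h (3.88 ± 0.60, limma adjusted p = 0.0019). In all 3 the lowest 20 h array was far above the highest 8 h array. The others, HYH among them, ran down to 2.31 (AT2G36970), with adjusted p from 6.61e-06 for AT4G15430 to 0.0493 for AT5G58120 in limma. Of its 15 largest lower genes, AT1G11210 led, with 1.2, 2.7 and 4.3 at 20 h, against 149.5, 56.2 and 194 at 8 h (-5.04 ± 0.72, limma adjusted p = 0.00112). AT1G56300 had 19, 19.5 and 23.7 at 20 h, against 674, 283 and 559 at 8 h (-4.45 ± 0.44, limma adjusted p = 6.77e-05). AT1G51090 had 6.1, 9.2 and 2.3 at 20 h, against 160.2, 73.5 and 171 at 8 h (-4.33 ± 0.72, limma adjusted p = 0.00315). In these, too, the groups lay far apart. AT4G30650 (-3.21 ± 0.39, limma adjusted p = 0.00034) and AT4G30660 (-3.47 ± 0.29, limma adjusted p = 2.47e-05) are neighbours in the genome. The remaining ones, COR15A, COR15B and GI among them, ran down to -2.38 (AT1G33970). In the 15 higher and the 15 lower genes the groups never overlapped, against no overlap in 90.8% of all calls and 19.2% of all probe sets. These genes were picked by the size of the difference on the same arrays, so this is no separate support. Series B had the smallest of the 3 differences in 14 of the 15 lower and 10 of the 15 higher genes, and every one was called without it. Without series A 2 higher and 5 lower genes were called, and the others stood at 0.0505 (AT1G11210) to 0.384 (AT5G58120), AT1G68440 at 0.0719. Without series C 5 and 4 were called, and the others stood at 0.0556 (AT5G26200) to 0.405 (AT5G58120). With a single array omitted the highest values were 0.237 for AT5G58120 and 0.193 for AT2G47890, both without 8 h C. With equal array medians AT5G58120 (0.0591) and AT4G16146 (0.0501) lost their calls. Without the series block AT5G58120 (0.08) and AT2G47890 (0.086) did.

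**Figure D4:**
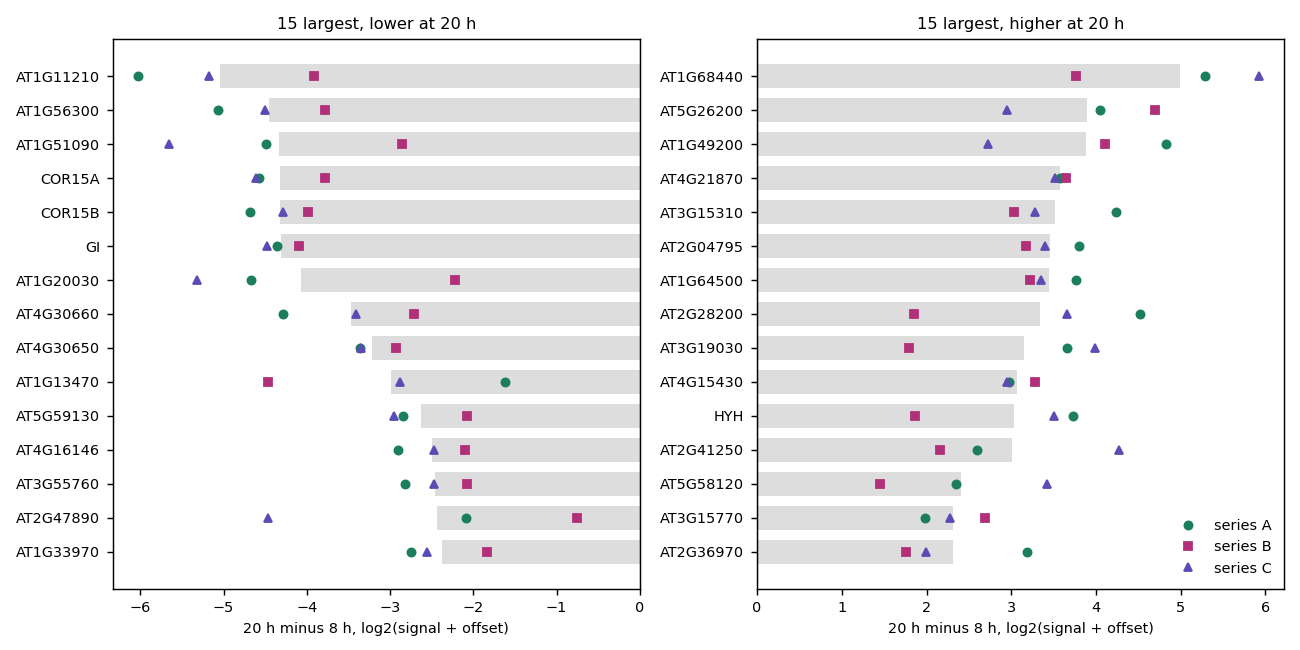
The log2 difference, 20 h minus 8 h, of the 15 largest lower (left) and 15 largest higher (right) genes, as a grey bar for the fitted value and symbols for the pair of arrays in series A, B and C. Series B lies nearest to 0 in 14 of the lower and 10 of the higher genes. No symbol crosses 0, as the same direction in A, B and C was required of these genes.

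The other times show where 20 h and 8 h lay in the course. Of the 803 higher probe sets, 614 had their highest mean at 0 h and 177 at 20 h, and 494 had their lowest at 8 h and 297 at 12 h. Of the 757 lower ones, 546 had their lowest mean at 0 h and 201 at 20 h, and 481 had their highest at 8 h and 254 at 12 h. COR15A averaged 41.7 at 0 h, 2859.6 at 8 h, 3496 at 12 h and 149 at 20 h. SWEET2 averaged 182 at 20 h and 408 at 0 h, and AAH 133 and 279, so both were below their highest mean at 20 h. ATSPS4F, SWEET11, SBPASE, RR16 and GT2 had their highest mean at 20 h itself. GI and AT1G56300 peaked at 8 h in series A and C but at 12 h in series B.

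**Figure D5:**
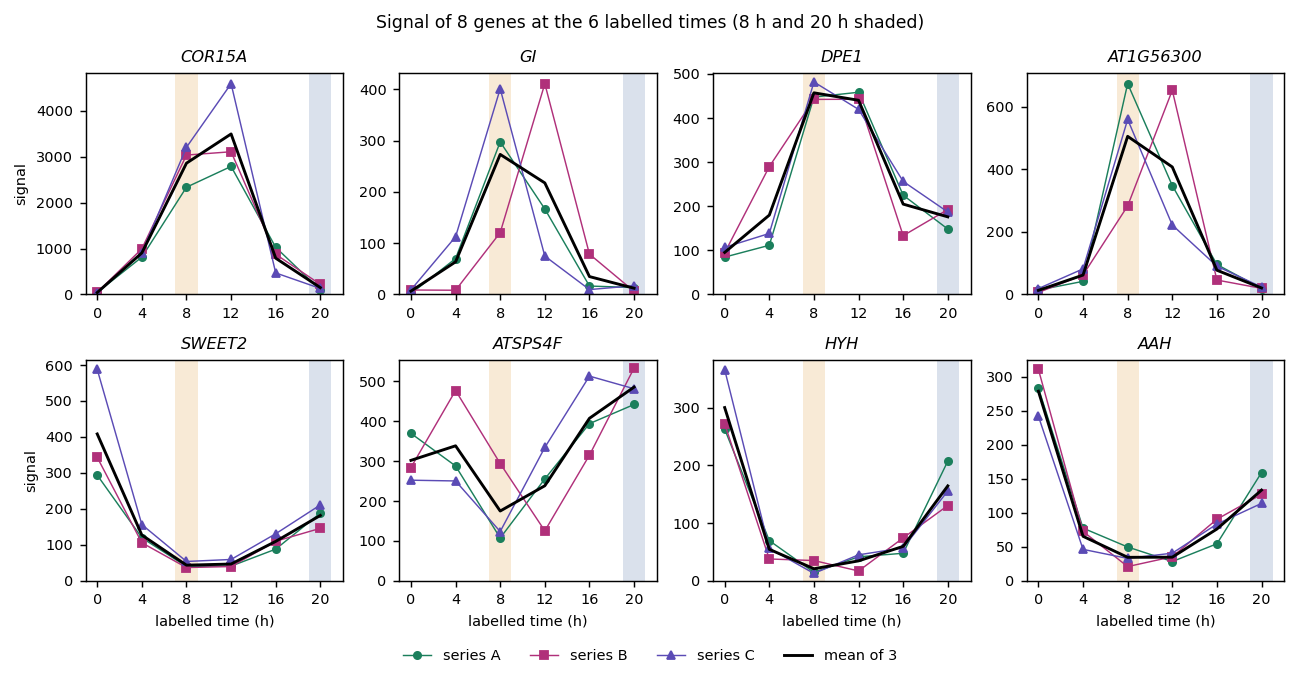
Signal of 8 genes at the 6 labelled times, with thin lines and symbols for series A, B and C, a thick black line for the mean of 3, and shading at 8 h (orange) and 20 h (blue). The upper genes are high at 8 h and low at 20 h, the lower ones the reverse, and in series B GI and AT1G56300 are highest at 12 h.

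Genes that mark other tissues or serve as references gave no call. The root markers PYK10, EXPA7 and EXPA18 summed to signals of 197 to 224 at 20 h, against 189 to 310.1 at 8 h, most of it PYK10 (-0.15 ± 0.20, limma adjusted p = 0.742). FMA, a factor of guard cell development, stood at 75.2 ± 8.37 at 20 h, against 68.2 ± 10.1 at 8 h (0.14 ± 0.19, limma adjusted p = 0.741). Of the reference genes, PEX4 stood at 202 ± 34.6 at 20 h, against 194 ± 20.5 at 8 h, and GAPC2 at 3227 ± 518 at 20 h, against 2972 ± 395 at 8 h. AT2G28390 stood at 119 ± 8.85 at 20 h, against 131 ± 13.8 at 8 h, and AT4G34270 at 133 ± 7.36 at 20 h, against 112 ± 12.8 at 8 h. Their differences lay between -0.13 and 0.25, with a lowest limma adjusted p of 0.437. The bright signals of RCA (4739.7 ± 2183 at 20 h, against 3642 ± 1032 at 8 h) and LHCB4.1 (5015 ± 1248 at 20 h, against 6121 ± 2439 at 8 h) are those of genes known from green tissue. Single members of further lists were not called either. These were PDF1.2 of defence (-0.39 ± 0.32, limma adjusted p = 0.564), DFR of flavonoid synthesis (0.74 ± 0.37, limma adjusted p = 0.28), EXPA8 of growth (0.40 ± 0.48, limma adjusted p = 0.713) and AT1G53540 of the heat shock list (0.04 ± 0.24, limma adjusted p = 0.958).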

How the data were processed

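Per the labels' protocols, total RNA of ground rosettes was turned into biotin-labelled cRNA and hybridised to Affymetrix arrays. The deposited values are linear signal intensities, and MAS5 is named in the submitters' processing notes with no version. From the values, the authors' arrays had been scaled to a trimmed mean of 100.0. No detection calls were used, so probe sets near background were not set apart, and the number of arrays limits the precision. 

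Groups came from the sample titles. Intensities were analysed as log2(signal + 1.1), where 1.1 is the 10th percentile, so differences of dim probe sets are understated. Limma 3.58.1 in R 4.3.3 was fitted to all 18 arrays with time and series, a variance trend and p-values adjusted by Benjamini-Hochberg across 22746 probe sets, the 64 controls set aside. The fit was also run on simulated data with independent noise and no series effect, so that run does not bear on series differences or misplaced arrays. Since the series were grown separately, the letter pairs arrays: deviations from the time means of the 20 h and 8 h arrays correlated by 0.276, 0.337 and 0.363 within series A, B and C. Alternatives were the fit without the block or with 6 arrays, other scalings and offsets, a filter on dim probe sets, no variance trend, a minimum difference, and omitted series or arrays.

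A RefSeq table of TAIR10.1 matched 13436 of 13513 probe sets with 1 gene; 503 had several genes and 8730 are unnamed here. Named genes were the 15 largest called differences each way among bright probe sets with 1 gene and the same direction in A, B and C, all list members, and up to 3 called members each way and the brightest of each family; called genes with a symbol beyond these were picked after their values were seen. The members and lists were chosen with earlier results of these data known. Sequences were not used here.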

Additional observations from a re-analysis of the deposited data

How the results depend on the processing

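The number of probe sets called between 20 h and 8 h was 1560. It was 742 without the replicate block, 862 with only the 6 arrays of the pair and no block, 2654 on dropping 4 h B and 16 h B, 3140 on dropping 8 h B and 12 h B as well, 1017 without a variance trend and 623 with a minimum log2 difference of 1. With a series or a single array left out it ranged from 62 (without series A) to 2873 (without series B). It stayed within 1.5 times with quantile normalization (1556), equal medians (1440), both other offsets (1531 and 1462), without dim probe sets (1917 of 13648) and with 6 arrays and the block (2038). Quantile normalization put 49.3% of the calls higher at 20 h, against 51.5%. None of the 139 called genes followed one by one changed direction under these alternatives. Of them 78 were called without the block, 10 without series A, 130 without series B and 15 without series C. With a series left out 2 arrays a time and 5 residual degrees of freedom remained. Each time has 3 arrays, and no detection calls were used, so signals near the offset are poorly known.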

Other observations

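Several called genes of cell division and of cell organisation, not covered by the lists and picked after their values were seen, differed by small amounts. AUR2, a mitotic Aurora kinase, was lower at 20 h (-0.64 ± 0.17, limma adjusted p = 0.0412). BUB3.1 of the spindle checkpoint was lower too, with 50.7, 53.2 and 62.9 at 20 h, against 82.2, 74.2 and 131 at 8 h (-0.73 ± 0.20, limma adjusted p = 0.0405), as was the histone gene HTB4 (-0.39 ± 0.10, limma adjusted p = 0.0286). SAMBA, a regulator of the complex that degrades mitotic proteins, was higher, with 136, 96.1 and 103 at 20 h, against 103, 62.3 and 58.8 at 8 h (0.61 ± 0.17, limma adjusted p = 0.0428), and SP1L4, of a family that acts on microtubules, was higher as well (1.51 ± 0.39, limma adjusted p = 0.0339). None of these genes kept its call with each series left out in turn: AUR2 stood at 0.18, 0.167 and 0.332 without A, B and C, and SAMBA at 0.235, 0.0574 and 0.343. All 5 lost their calls without series A (0.137 to 0.429) and without series C (0.227 to 0.358), and SAMBA with equal array medians (0.0563) and quantile normalization (0.0671) too.

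Enzymes of small-molecule metabolism also appeared on both sides. HCT, an acyltransferase of lignin synthesis, was bright and higher at 20 h, with 802, 832 and 875 at 20 h, against 495, 431 and 511 at 8 h (0.81 ± 0.17, limma adjusted p = 0.0132). MTP11, a manganese transporter, was higher in every series by a similar amount, 0.79, 0.81 and 0.74 in A, B and C (0.78 ± 0.14, limma adjusted p = 0.00422). PYRB, which carries out an early step of pyrimidine synthesis, was lower, with 174, 207 and 156 at 20 h, against 258, 285 and 226 at 8 h (-0.52 ± 0.12, limma adjusted p = 0.0187), and so was QPT, of NAD synthesis (-0.38 ± 0.09, limma adjusted p = 0.0198). ATMDAR2, a monodehydroascorbate reductase, was lower as well (-0.62 ± 0.16, limma adjusted p = 0.0342). CP5 had the highest mean signal at 20 h of the called genes with a symbol, with 2893, 3382 and 3260.2 at 20 h, against 1841, 1113 and 1263 at 8 h (1.21 ± 0.22, limma adjusted p = 0.0058). Each of these 6 genes was called without series B and lost its call without series A (0.0814 for CP5 to 0.426 for ATMDAR2) and without series C (0.0883 for CP5 to 0.317 for QPT). MTP11 stood at 0.186 and 0.0903 there, HCT at 0.223 and 0.167, and PYRB at 0.223 and 0.19. With a single array left out MTP11 and CP5 kept their calls, and the others reached at most 0.158 (ATMDAR2, without 20 h A).

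Calls were also set against gene order. Of 5809 pairs of adjacent loci in the RefSeq table that both had a probe set, 36 (0.62%) had both genes called. Of these, 16 pairs were higher, 7 pairs lower and 13 pairs in opposite directions. Of 13350 single genes 5.67% were called, which is a share of genes and not of pairs, so it cannot be set against the 0.62%. The pairs that were lower included COR15B with COR15A and AT4G30650 with AT4G30660, and those that were higher included TSC10A with AT3G06070. Opposite pairs included DPE1, at -1.38, with AT5G64850, at 1.27, and AT3G55760, at -2.46, with WLIM2b, at 0.40. Whether neighbours were called together more often than other pairs was not tested, nor whether probe sets of neighbours respond to each other's transcript.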
